A study of Mus musculus with 12 samples.

Results

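Polyps of the large bowel were compared with normal colorectal tissue of the same 4 Apc mutant mice. The comparison used 8 of the 12 arrays of the study, namely the polyp and the normal-tissue array that carry the number of 1 mouse (103, 106, 107 or 110) in their titles. All 4 were C57BL/6N females aged 14 weeks and heterozygous for the Apc Δ716 allele, a truncation of the tumour suppressor Apc, so the normal tissue carried the allele as well. The other 4 arrays, from normal tissue of wild-type mice 102, 104, 105 and 108 of the same strain, sex and age, gave background levels, and lay together on a slide of their own, so slide and genotype cannot be told apart. The sources used here do not say whether an array held 1 polyp or several of a mouse.

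In this model a crypt cell that loses the remaining Apc copy keeps β-catenin stable and its Wnt target genes switched on. The cell goes on dividing, matures poorly into the absorptive, mucus-secreting and hormone-secreting cells of the colon lining, and grows into a benign adenoma. The adenoma also draws in blood vessels, fibroblasts and immune cells, so whole polyps report on many cell types. The best known response, that of Wnt target and cell cycle genes, is left aside here except for its size: 22 of 25 Wnt targets and 28 of 29 cell cycle genes rose.

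Each value is the log2 of the background-subtracted Cy3 signal of a probe minus the 75th percentile of its array, called the level below. A difference is polyp minus normal tissue of the same mouse, on the log2 scale, so that 1 stands for a 2-fold rise, and values for several mice are given in the order 103, 106, 107 and 110. Means of the 4 differences carry the SE of a paired limma fit (n = 4 pairs), and a gene was said to rise or fall where its Benjamini-Hochberg adjusted p, over 20071 tested genes, was under 0.05. The number of arrays limits the precision. Where leaving out 1 mouse moved a count of genes by over 1.5 times and by 2 genes or more, the 4 counts without mouse 103, 106, 107 and 110 are given as leave-out counts. Tested were genes, out of 30139 genes or transcripts with a probe, whose signal stood well above background in every sample of 1 group or more. Cyp2b10 and the genes given an "at least" rise below entered only through the polyps, where they are high. No p is therefore given for them. Class counts and class medians also include genes that entered through the signal of 1 tissue only.

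Polyps and normal tissue differed in a large part of the genome. In all, 4179 genes rose (20.8% of those tested) and 5139 fell (25.6%) in polyps, and the median difference of all tested genes was −0.06. The sign was the same in all 4 pairs for 12427 genes (61.9%), higher for 5606 (27.9%) and lower for 6821 (34%). Agreement in sign and a small p were not the same thing: 9264 of the 9318 called genes had 1 sign in all 4 pairs, 54 did not, and 3163 genes had 1 sign without passing the test. Of the called genes, 1853 were at least 2-fold higher and 2417 at least 2-fold lower, and 16-fold or larger differences numbered 187 upward and 63 downward. The levels of the 4 polyps and of the 4 normal tissues did not overlap for 4108 genes higher (20.5%) and 4954 genes lower (24.7%) in polyps. Slide 2 held mice 103 and 106 and slide 3 mice 107 and 110. All 9318 called genes had the same sign of the mean difference on both slides. The genes were called from these same pairs, however, and for the 9264 with 1 sign in all 4 pairs the slides had to agree. The agreement was thus nearly fixed in advance and is no separate test of either slide.

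Some limits of the samples touch every result. Normal tissues took positions 1 and 3 of both slides and polyps positions 2 and 4, so array position and tissue cannot be told apart. Markers of the bowel wall were lower in polyps: all 10 smooth muscle markers fell (median −3.62), among them Des, Cnn1 and Synm, as did 10 of 12 markers of enteric neurons and glia and 4 of 5 adipocyte markers (leave-out counts 4, 2, 1 and 2). For the summed signal of the smooth muscle markers, normal tissue lay between 8.27 and 8.73 and polyps between 4.91 and 5.88, with none of the markers at background on all 8 arrays. In tissue samples of this kind fewer cells of a type and less RNA per cell cannot be told apart. Markers of the whole epithelium fell in 6 and rose in 0 of 10 cases (median −0.79), with a summed signal between 9.71 and 9.86 in normal tissue and between 9.01 and 9.28 in polyps and none of them at background on all 8 arrays. The part of fewer or more epithelial cells in the other values was not tested. Among these markers Krt8, a simple-epithelium keratin, stood at 7.86, 7.83, 7.85 and 7.84 in normal tissue and 7.24, 7.21, 7.23 and 7.37 in polyps (−0.58 ± 0.09, adjusted p = 0.00748), a fall that did not pass after quantile normalization (−0.08, adjusted p = 0.503), and Epcam, an epithelial adhesion protein, differed by −0.36 ± 0.12 (adjusted p = 0.0646).

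Apc itself fell slightly, with differences of −0.51, −0.52, −0.25 and −0.23 in the 4 mice. Its mean difference was −0.38 ± 0.11, adjusted p = 0.0396, and the call ended when any 1 mouse was left out (adjusted p = 0.0683 to 0.145). Whether the Apc probe sits inside the deleted stretch of the transcript could not be read from the files, and the genotype labels are therefore not checked by it.

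The normal tissue of mouse 107 and the polyp of mouse 103 stood apart from the others of their group for defined gene sets. Hoxb13, a homeobox factor of the hindmost gut, stood at 5.95, 5.31, 2.44 and 5.63 in Apc normal tissue and at 5.85 ± 0.20 (SD, n = 4) in wild-type tissue. Its difference did not pass over 4 pairs (−0.68 ± 0.51, adjusted p = 0.314) and passed without mouse 107 (−1.33, adjusted p = 0.00538). Hoxd13, another posterior homeobox gene, stood at 0.23, 1.02, −7.57 and 1.55 in Apc normal tissue, and only the sample of mouse 107 was not well above background. That sample was thus the lowest of 4 for both genes. The polyp of mouse 103 was lowest of 4 for a group of interferon-induced genes described further on. Where leaving out either mouse changed the call of a gene described for this pattern, the value without that mouse is given, and the part of sampling site in these results was not tested.

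Differences of the same size in every mouse were first ranked by their spread. Among ranked genes with a mean difference of at least 2, the one of smallest spread was Cnnm1, a membrane protein of the magnesium transport family. Its levels were −2.41, −2.74, −2.61 and −1.85 in normal tissue and −4.64, −5.0, −4.93 and −4.14 in polyps. The normal tissues varied more than the differences did, and every polyp lay a near-constant step below its own normal tissue (−2.23, −2.25, −2.32 and −2.28, mean −2.27 ± 0.09, adjusted p = 0.000491). Vdr, the vitamin D receptor, followed the same course at a higher level. It stood at 3.72, 2.24, 2.99 and 3.1 in normal tissue and 0.28, −1.06, −0.14 and −0.23 in polyps, and the groups did not overlap. Its differences of −3.45, −3.30, −3.13 and −3.33 gave a mean of −3.30 ± 0.10, adjusted p = 0.000464, and wild-type tissue stood at 3.60 ± 0.25 (SD, n = 4).

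Other uniform falls covered muscle and epithelial genes. Myom3, a protein of the muscle M-band, fell by 2.12 to 2.24 and Lims2, an adaptor at integrin adhesions, by 2.61 to 2.82. Slc16a9, a monocarboxylate transporter, fell by 2.40 to 2.64, Edn2, an endothelin peptide made by the gut lining, by 2.39 to 2.67, and Shpk, the sedoheptulose kinase of sugar metabolism, by 1.86 to 2.14. Vstm5, a membrane protein of the immunoglobulin family, differed by −2.60, −2.41, −2.57 and −2.51.

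The uniform rise of largest size was that of Cers3, a ceramide synthase that makes ceramides with very long acyl chains and is best known from skin. Its levels were −4.69, −4.22, −4.14 and −3.97 in normal tissue and 1.14, 1.43, 1.35 and 1.54 in polyps. All 4 polyps lay close together and far above every normal tissue (differences 5.82, 5.65, 5.49 and 5.51, mean 5.62 ± 0.11, adjusted p = 0.000283). In wild-type tissue Cers3 stood at −5.38 ± 0.32 (SD, n = 4). Lama5, the α5 chain of basement membrane laminins, rose by 2.38 to 2.64 and Serpine2, an inhibitor of thrombin and plasminogen activators, by 2.05 to 2.30. Ecscr, a surface protein of endothelial cells, differed by 3.21, 3.06, 2.92 and 3.03, beside endothelial markers of which 2 rose and 1 fell of 9 (median 0.05, leave-out counts of rises 0, 0, 1 and 1). Elk3, a transcription factor of the ETS family, rose by 2.37 (1.62 to 2.54 at its other probes), Mtap, an enzyme of methionine salvage, by 2.10, Mex3d, an RNA-binding protein, by 2.39, and Prl2c1, a member of the prolactin family, by 2.44 on average.

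**Figure D1:**
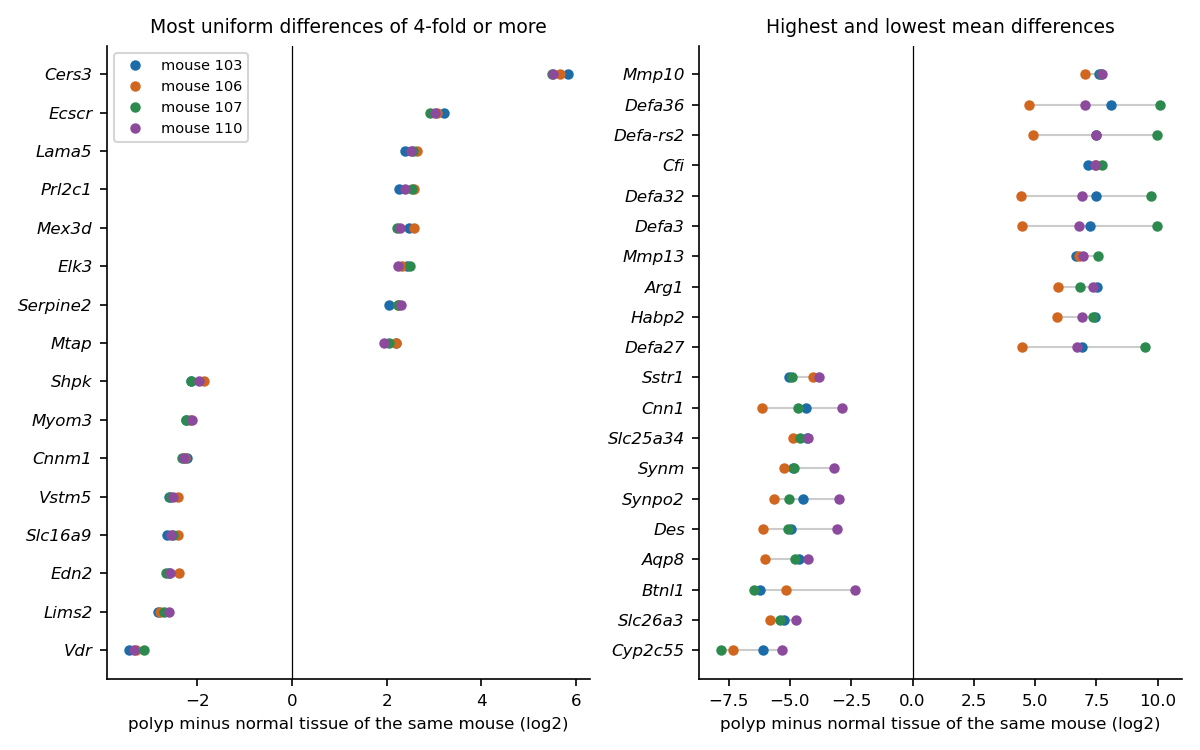
Within-pair differences (log2, polyp minus normal tissue of the same mouse) for the genes of smallest spread among differences of 4-fold or more (left) and for the highest and lowest mean differences (right), with 1 point per mouse and a grey line from the lowest to the highest. Points of the uniform genes lie almost on top of each other, while the defensin genes spread from under 5 in mouse 106 to over 9 in mouse 107.

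At the upper end of the ranking stood 2 secreted metalloproteinases, a complement protease and an arginine-degrading enzyme. Mmp10, stromelysin-2, had levels of −3.59, −1.75, −2.85 and −3.18 in normal tissue and 4.03, 5.28, 4.82 and 4.53 in polyps, 182-fold higher on average (7.51 ± 0.15, adjusted p = 0.000294), and differed by 7.62, 7.03, 7.67 and 7.71. Cfi, complement factor I, stood at −5.32, −4.39, −5.16 and −5.42 and 1.82, 3.07, 2.55 and 2.02, and its differences of 7.14, 7.47, 7.71 and 7.44 were among the most even of this size. Arg1, arginase 1, a marker of certain macrophages and of myeloid cells, stood at −5.64, −3.25, −3.89 and −3.90 and 1.87, 2.67, 2.94 and 3.48 (mean difference 6.91 ± 0.29, adjusted p = 0.0005). In all 3 genes every polyp lay above every normal tissue, wild-type tissue included. Habp2, a plasma protease that binds hyaluronan, rose by 6.90, and a dimmer probe of the same gene by 3.86.

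Alpha-defensins, the bactericidal peptides of small-intestinal Paneth cells, filled 5 of the 10 highest places. Their rise was large and uneven: Defa36 differed by 8.10, 4.76, 10.09 and 7.02, Defa-rs2 by 7.46, 4.90, 9.95 and 7.49, Defa32 by 7.49, 4.41, 9.73 and 6.90, Defa3 by 7.22, 4.44, 9.96 and 6.78 and Defa27 by 6.89, 4.48, 9.48 and 6.70. Each was least in mouse 106 and most in mouse 107. The mean of Defa36 was 8.41 without mouse 106 and 6.63 without mouse 107, and the other 4 moved alike. These genes are near-identical copies whose probes may read each other, and another probe of Defa-rs2 differed by only 0.18, so a value for a single defensin is uncertain. All 8 tested Paneth cell markers rose (median 5.84, by mouse 6.0, 4.59, 5.78 and 6.34). Among them were the lectin gene Itln1 (5.30 ± 0.20), the phospholipase gene Pla2g2a (3.69 ± 0.16) and Mmp7 (6.37 ± 0.22).

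The lower end held genes of the surface lining and of muscle. Cyp2c55, a cytochrome P450 that oxidises arachidonic acid, stood at 3.91, 3.31, 6.86 and 3.70 in normal tissue and −2.20, −4.0, −0.94 and −1.61 in polyps (mean difference −6.63 ± 0.45, adjusted p = 0.000977). The groups did not overlap, although the normal tissue of mouse 107 was far above the other 3. Slc26a3, the chloride-bicarbonate exchanger of the colon surface, had levels of 4.93, 3.76, 4.78 and 4.21 and −0.33, −2.04, −0.61 and −0.57 and differed by −5.26, −5.80, −5.39 and −4.77. Aqp8, a water channel, differed by −4.65, −6.03, −4.81 and −4.26, and Btnl1, a butyrophilin-like protein that supports γδ T cells of the gut lining, by −6.20, −5.16, −6.48 and −2.33. The fall of Btnl1 was smallest in mouse 110, whose normal tissue was the lowest of 4 at −0.33, and the mean was −5.95 without that mouse. Slc25a34, a mitochondrial carrier, fell by 4.27 to 4.86. Sstr1, a somatostatin receptor, fell by 3.84 to 5.02, and by 0.78 at another probe. The muscle filament genes Des (−4.94, −6.10, −5.06 and −3.06), Synm (−4.88, −5.23, −4.84 and −3.21), Cnn1 (−4.35, −6.12, −4.67 and −2.87) and Synpo2 (−4.46, −5.67, −5.06 and −2.99) fell least in mouse 110, and 2 other probes of Synpo2 fell by 1.79 and 2.02.

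**Figure D2:**
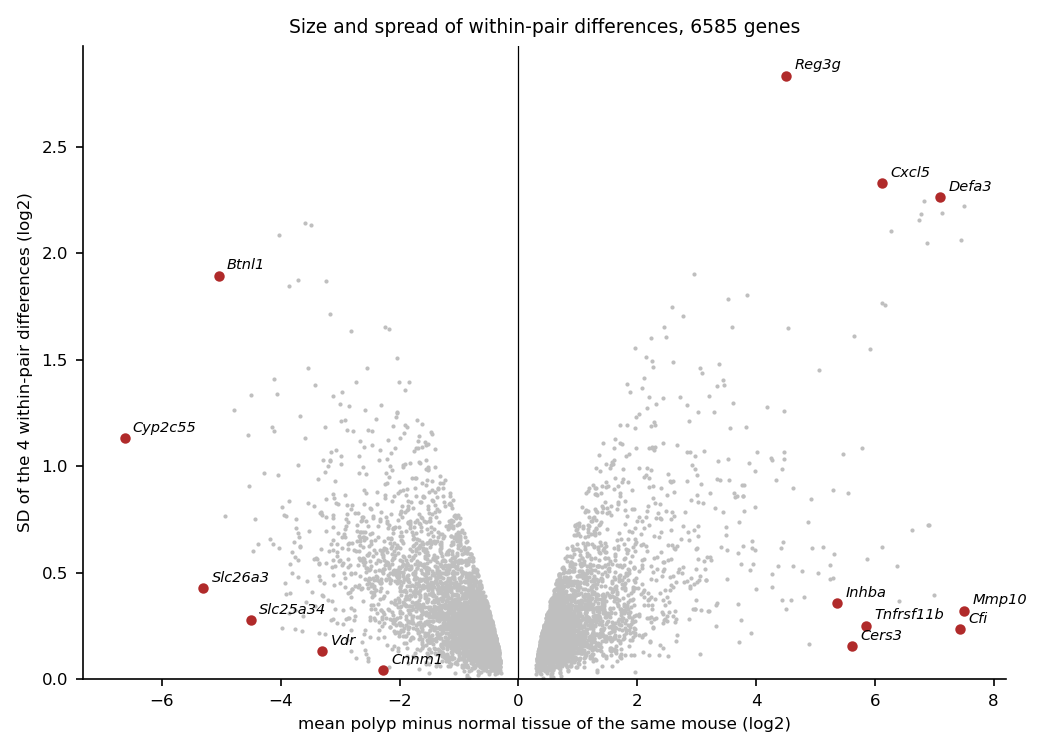
Mean within-pair difference (log2, x axis) against the SD of the 4 differences (log2, y axis) for the 6585 genes that were ranked, with some of the genes named in the text in red. Genes with a large mean and a small SD, such as Cers3, Cfi and Vdr, lie at the bottom, and Reg3g and Cxcl5 at the top. The empty wedge around 0 comes from ranking called genes only.

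Gene classes were then read one by one, and their medians by mouse show which classes went the same way in every animal. Over all tested genes 20.8% rose and 25.6% fell. Class counts near these shares, here and in later paragraphs, are no result about the class. Of 30 tested genes of ion and water transport 20 fell and 1 rose, with a median of −1.85 against −0.06 over all tested genes, and the medians of the 4 mice were −2.24, −2.02, −1.86 and −1.48. Besides Slc26a3, the sulphate carrier Slc26a2 fell by 3.35 to 3.93 (mean −3.62 ± 0.15, adjusted p = 0.000491) and the sodium-proton exchanger Slc9a2 by 2.91 to 3.88. The aldosterone-regulated sodium route was lower at several steps: the sodium channel subunit Scnn1a differed by −2.59 ± 0.13, the mineralocorticoid receptor Nr3c2 by −2.32 ± 0.20 and the enzyme Hsd11b2, which shields that receptor from glucocorticoids, by −2.93 ± 0.20. The guanylin peptide Guca2a differed by −2.92, −2.63, −3.63 and −1.26 and its receptor Gucy2c by −1.94, −2.01, −1.84 and −1.41, both falling least in mouse 110. Cftr, the chloride channel that guanylin opens, differed by −1.83 ± 0.13.

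Carbonic anhydrases, which interconvert carbon dioxide and bicarbonate, fell in 8 of 11 cases and rose in none (median −1.12). Car2 stood at 6.02, 5.64, 5.93 and 6.0 in normal tissue and 2.88, 2.58, 3.34 and 3.53 in polyps (mean difference −2.82 ± 0.16, adjusted p = 0.000801), without overlap. Car4 differed by −2.33 ± 0.25, and by −4.54 at another probe, and Car1 by −3.12 ± 0.35. Car3, an isoform also found in muscle and fat, was the exception among large differences: it differed by 0.28, −3.14, −5.72 and −2.56 and did not pass the test (adjusted p = 0.0647).

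Amino acid and peptide transporters rose in 11 and fell in 6 of 26 cases (median 0.38), with leave-out counts of rises 6, 9, 11 and 8. The peptide carrier Slc15a1 fell (−2.84 ± 0.18, adjusted p = 0.000935), as did Slc6a14 (−2.67 ± 0.28) and both subunits of the cystine carrier, Slc3a1 (−3.40 ± 0.46) and Slc7a9 (−2.89 ± 0.46). Slc38a4, a sodium-coupled carrier of neutral amino acids known from placenta and liver, was not well above background in any Apc normal tissue. In polyps, where levels were −1.73, −0.94, −0.18 and −1.94, it was higher by at least 22.8-fold. Slc16a10, a carrier of aromatic amino acids, rose by 1.43 to 2.95 and Slc7a6 by 0.67 to 1.76. Sugar and monocarboxylate transporters fell in 9 and rose in 3 of 16 cases (median −0.54), with leave-out counts of falls 5, 6, 7 and 10. Among those that fell were Slc5a8, the sodium-coupled carrier of butyrate (−3.14 ± 0.17, adjusted p = 0.000715), the glucose carrier Slc5a1 (−1.93 ± 0.12) and the fructose carrier Slc2a5 (−1.80 ± 0.25). The glucose carrier Slc2a3 rose by 0.63 to 1.72. Mitochondrial carriers fell in 16 and rose in 6 of 40 cases, Slc25a42, a carrier of coenzyme A, by 1.85 to 2.30, with leave-out counts of falls 8, 12, 11 and 12.

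Cytochrome P450 genes, whose enzymes oxidise drugs and hormones, fell in 32 and rose in 3 of 57 cases (median −1.32, by mouse −1.45, −1.21, −1.35 and −1.04). That median was −0.81 without mouse 107 and −0.66 after normexp background correction with quantile normalization. Conjugating enzymes, which add sulphate, glucuronate or glutathione or cleave esters, fell in 37 and rose in 2 of 54 cases (median −1.55). Cyp2c68 (−3.36 ± 0.12, adjusted p = 0.000489) and Cyp2d26 (−2.82 ± 0.13, adjusted p = 0.000549) fell. Cyp3a13 differed by −3.75 ± 0.24 and Cyp4f14 by −3.85 ± 0.33. Cyp4b1 was not well above background in any polyp and was at least 11.3-fold lower there (adjusted p = 0.00192). Unlike these, Cyp2b10, a P450 induced by xenobiotics, was higher in polyps (5.94 ± 0.60). Its levels were −5.90, −5.79, −7.97 and −4.19 in normal tissue, where only 1 array was well above background, and 0.90, −0.13, −0.55 and −0.29 in polyps. Without mouse 110 its mean was 6.62. The nuclear receptor best known to induce it, Nr1i3, stood at −1.54, −2.61, −3.01 and −1.60 in normal tissue and −5.70, −6.66, −5.67 and −5.67 in polyps (−3.73 ± 0.29, adjusted p = 0.00129), where 1 array of 4 was well above background, and differed by −2.46 at another probe. The signs of the 2 genes were opposite in every mouse, with each gene mostly not well above background in 1 of the 2 tissues. A link between them was not tested.

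Among conjugating enzymes the carboxylesterase genes Ces1e (−3.93 ± 0.20, adjusted p = 0.000653), Ces2c (−3.84 ± 0.23) and Ces2a (−4.13 ± 0.26), the sulphotransferase Sult1a1 (−4.38 ± 0.26), the glucuronosyltransferase Ugt1a10 (−3.12 ± 0.27) and the glutathione transferase Gstm3 (−2.66 ± 0.21) fell. Gstm5, of the same cluster, rose by 0.85 to 1.46. Genes of the Cyp2c, Cyp2d, Ces, Gstm and Ugt1a clusters resemble each other closely or share exons, and single values are uncertain to that extent. Drug efflux and other ABC transporters fell in 18 and rose in 9 of 36 cases, with leave-out counts of falls 10, 13, 15 and 11. Abcb1a, the P-glycoprotein pump, stood at 4.44, 3.57, 4.43 and 3.73 in normal tissue and 0.61, −0.18, 0.74 and 0.41 in polyps (mean difference −3.65 ± 0.13, adjusted p = 0.000489) without overlap, and the phospholipid flippase Abcb4 (−3.29 ± 0.17) and the urate and drug pump Abcg2 (−2.86 ± 0.26) fell too. The pumps Abcc2 (3.98 ± 0.45) and Abcc4 (2.60 ± 0.19) rose.

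Nuclear receptors as a family, of which only some are known to drive such genes, fell in 21 and rose in 7 of 41 cases (median −0.60, or −0.37 after normexp and quantile normalization, leave-out counts of rises 5, 5, 5 and 4). Vdr was the most uniform of them. The pregnane receptor Nr1i2 differed by −1.74 ± 0.21, the liver receptor homologue Nr5a2 by −3.39 ± 0.23 and the gut identity factor Hnf4a by −1.63 ± 0.11. Among those that rose were the retinoic acid receptor Rarb (2.77 ± 0.29, adjusted p = 0.00244) and the oestrogen receptor Esr1, which was not well above background in any Apc normal tissue and at least 5.56-fold higher in polyps.

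Retinoid genes went both ways, with 4 rises and 9 falls among 19. Stra6, the cell-surface receptor that takes up retinol, stood at −2.83, −2.49, −4.77 and −1.86 in normal tissue and 2.88, 2.93, 1.86 and 2.22 in polyps (mean difference 5.46 ± 0.42, adjusted p = 0.00125). Every polyp lay above every normal tissue by more than 3. Of the enzymes that make retinoic acid, Aldh1a3 rose (5.03, 3.16, 5.36 and 4.17, mean 4.43 ± 0.39, adjusted p = 0.00166) and Aldh1a1 fell (−3.64, −3.47, −5.07 and −2.65, mean −3.71 ± 0.40, adjusted p = 0.00252). The intestinal retinol-binding protein Rbp2 fell by 3.39 to 4.17 (mean −3.75 ± 0.15, adjusted p = 0.000496).

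Antioxidant enzymes gave 7 rises and 8 falls among 30, with leave-out counts of rises 3, 4, 4 and 3 and of falls 3, 3, 5 and 6. Prdx6, a peroxiredoxin, fell (−1.92 ± 0.13, adjusted p = 0.000982), as did catalase, Cat (−2.23 ± 0.20, and −0.78 at another probe), while haem oxygenase, Hmox1, rose by 1.81 to 3.16. Of metal handling genes 10 rose and 11 fell of 31. The zinc importer Slc39a5 fell (−3.12 ± 0.14, adjusted p = 0.00055), and the manganese exporter Slc30a10 was at least 12.2-fold lower, being well above background in all normal tissues and in no polyp (adjusted p = 0.00159). The zinc transporter Slc30a2 rose (3.80 ± 0.36), and so did Lcn2, an iron-siderophore binder of the innate defence (5.48, 4.79, 5.89 and 4.81, mean 5.24 ± 0.23, adjusted p = 0.0005).

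Barrier and surface genes followed. Claudins, connexins and other junction proteins rose in 6 and fell in 19 of 46 cases, with leave-out counts of falls 10, 14, 17 and 17. Cldn4, a sealing claudin, differed by 3.47, 4.48, 2.11 and 4.06 (mean 3.53 ± 0.41, adjusted p = 0.00303). Cldn8 fell (−1.96 ± 0.27), as did Cldn15, a pore-forming claudin (−2.77, −2.67, −2.56 and −0.67), least in mouse 110. The connexin Gjc1 fell (−1.13 ± 0.09).

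Keratins, the filaments of epithelial cells, rose in 13 and fell in 11 of 37 cases. Krt36, a keratin of hair, had levels of −1.37, −0.54, −2.24 and −0.44 in normal tissue and 4.97, 5.23, 4.02 and 4.67 in polyps (mean difference 5.87 ± 0.24, adjusted p = 0.000491). Krt6a, a keratin of stressed skin, was not well above background in any Apc normal tissue and higher in polyps by at least 28.7-fold. Krt17 rose by 3.18 to 5.11, Krt15 by 2.81 to 5.77 and the ductal keratin Krt7 by 1.66 to 1.89. Krt20, a keratin of mature colonocytes, fell, by 0.74 in mouse 110 and by 1.91 to 2.16 in the others. Of 7 squamous epithelium markers 2 rose and 1 fell (median 0.19, or 0.32 without mouse 107 and 0.63 without mouse 110, 2 at background on all 8 arrays), and their part in the keratin values was not tested.

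Mucus genes fell in 10 and rose in 2 of 22 cases, with medians of −0.86, −1.44, −1.41 and −0.20 in the 4 mice. Muc2, the gel-forming mucin of goblet cells, differed by −1.45, −2.11, −1.92 and −0.58 (mean −1.51 ± 0.28, adjusted p = 0.0108), and the membrane mucin Muc3 by −2.41, −3.23, −2.57 and −1.98. Tff1, a trefoil peptide of the stomach, rose (4.81, 2.96, 3.77 and 4.40, mean 3.99 ± 0.32, adjusted p = 0.00138). Glycosyltransferases that build mucin and surface glycans fell in 25 and rose in 1 of 42 cases (median −1.02), among them Mgat3 (−1.86 ± 0.14, adjusted p = 0.00119), the sialyltransferase St3gal4 (−3.95, −3.49, −2.84 and −2.22) and the core enzyme Gcnt3 (−1.93, −2.78, −3.06 and −0.95). Goblet cell markers moved with these genes, 8 of 10 falling (median −1.48), as did 11 of 12 colonocyte and 11 of 12 enteroendocrine markers. In mucus genes, goblet markers and Krt20 alike the difference was smallest in mouse 110. That mouse also had the smallest median absolute difference over all called genes, 0.781 against 0.995, 0.949 and 0.924 in mice 103, 106 and 107.

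**Figure D3:**
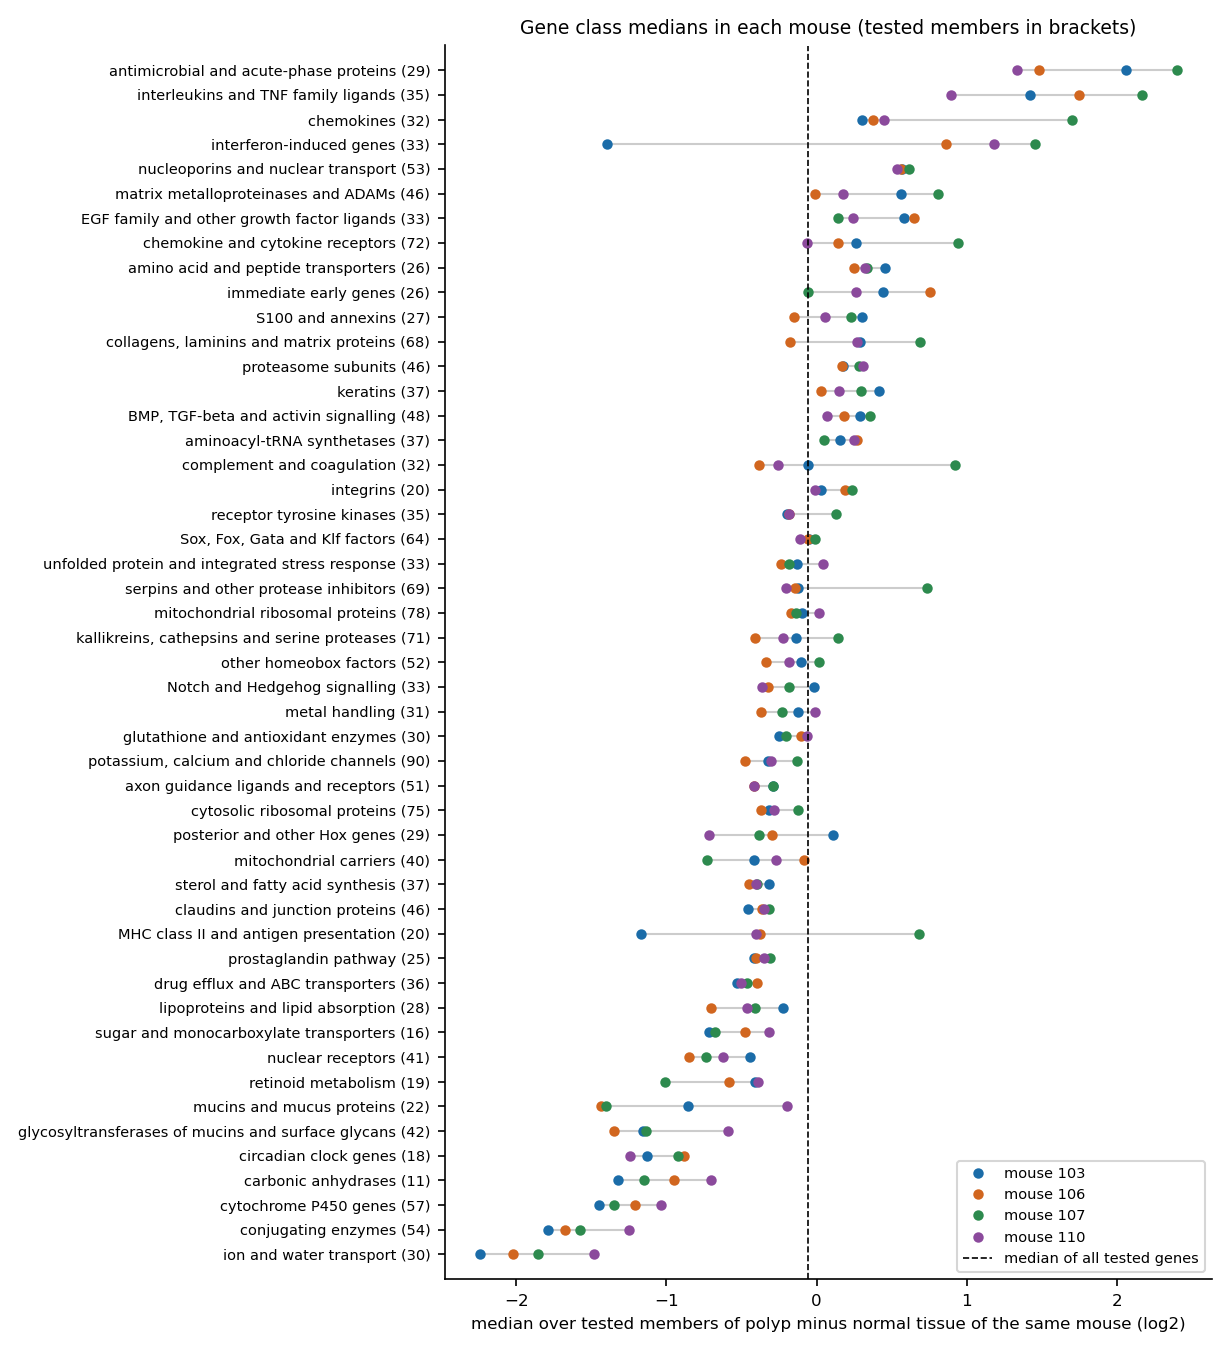
Median within-pair difference (log2) of the tested members of the gene classes, 1 point per mouse, with the number of tested members in brackets and a dashed line at the median of all tested genes (−0.06). Ion transport, conjugation and P450 classes lie to the left in all 4 mice, interleukins and antimicrobial proteins to the right, and the interferon-induced class is split between mouse 103 (−1.39) and the other 3 (0.86 to 1.46). Medians include members that were tested only through the signal of 1 tissue.

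Single proteases and protease inhibitors were among the largest rises outside the Wnt genes, though not all of their classes rose. Over all tested genes 20.8% rose and 25.6% fell. Matrix metalloproteinases and ADAM proteases rose in 17 and fell in 7 of 46 cases. After Mmp10 came Mmp13, collagenase 3, with levels of −3.66, −2.82, −3.83 and −3.31 in normal tissue and 3.0, 3.97, 3.72 and 3.65 in polyps (differences 6.66, 6.79, 7.55 and 6.96, mean 6.99 ± 0.18, adjusted p = 0.000407). Adam8, a membrane protease of myeloid cells, stood at −2.54, −1.88, −3.09 and −1.88 and 2.46, 2.83, 2.12 and 2.44 (4.81 ± 0.17, adjusted p = 0.000489). Mmp3 rose by 3.41 to 5.64 and the membrane-bound Mmp14 by 1.57 to 2.30. Of the plasmin system the activators Plau (2.44 ± 0.17) and Plat (3.87 ± 0.40) and the receptor Plaur (3.49 ± 0.29) rose.

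Promoters of the strongly raised proteases are shown because several share the letters bound by AP-1, the Fos and Jun dimer. The motif TGANTCA, sought on both strands in windows from 250 bases before to 50 after the RefSeq start of a gene (GRCm38.p6), lay in 7.81% of all 32851 windows. By gene it lay in 6.99% of the 12732 tested genes with a window and in 12.2% of the 460 with a window that rose by 4-fold or more. The share was 9.62% of the 572 that fell by 4-fold or more, 7.41% of all that rose and 7.42% of all that fell, and 23.3% of the 43 conjugating enzymes. Of the 29 metalloproteinase and ADAM genes with a window, 6 held it, and of 22 interleukin and TNF family genes 9 did. The 150 bases before the start are printed in the direction of the gene, with the motif in capitals, for Mmp13 (chr9:7272364-7272513, plus strand), Mmp10 (chr9:7502192-7502341, plus strand), Mmp7 (chr9:7691940-7692089, plus strand) and the cytokine gene Il11 (chr7:4778142-4778291, minus strand).
Mmp13: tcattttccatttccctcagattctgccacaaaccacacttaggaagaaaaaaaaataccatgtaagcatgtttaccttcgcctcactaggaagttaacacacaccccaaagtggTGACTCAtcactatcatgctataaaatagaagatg
Mmp10: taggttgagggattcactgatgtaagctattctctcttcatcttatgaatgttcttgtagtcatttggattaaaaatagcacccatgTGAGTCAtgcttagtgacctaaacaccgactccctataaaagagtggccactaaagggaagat
Mmp7: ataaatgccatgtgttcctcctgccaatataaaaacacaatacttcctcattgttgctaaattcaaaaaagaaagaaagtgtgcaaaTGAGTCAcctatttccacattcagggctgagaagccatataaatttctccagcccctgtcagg
Il11: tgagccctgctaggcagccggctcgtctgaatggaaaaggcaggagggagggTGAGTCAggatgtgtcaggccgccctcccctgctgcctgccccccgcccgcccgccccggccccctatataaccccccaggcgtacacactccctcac
Relative to the start of the window shown, the motif began at position −35 in Mmp13, −63 in Mmp10 and Mmp7 and −98 in Il11. Mmp7 and Il11 have 2 windows each, and the one shown was picked for holding the motif. These shares were not tested, and a match is a run of letters and not a measured binding site.

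Serpins and other protease inhibitors rose in 19 and fell in 17 of 69 cases (median −0.05), against 20.8% and 25.6% over all tested genes. Their leave-out counts of falls were 9, 13, 23 and 12. Serpinb11 and Serpind1, heparin cofactor II, were not well above background in any Apc normal tissue. They were higher in polyps by at least 42.7-fold and 24-fold. Timp1, an inhibitor of metalloproteinases, rose by 1.85 to 3.21. Kallikreins, cathepsins and serine proteases fell in 24 and rose in 13 of 71 cases (median −0.12). The tissue kallikrein Klk1, 1 of a cluster of close copies, fell by 1.72 to 3.02, while Htra1 (2.43 ± 0.14, adjusted p = 0.000801) and Prss12 (4.46 ± 0.26, adjusted p = 0.000842) rose.

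Collagens, laminins and other matrix proteins rose in 27 and fell in 15 of 68 cases. The anchoring collagen Col7a1 rose (3.19, 3.66, 2.94 and 3.04, mean 3.21 ± 0.15, adjusted p = 0.000607), and so did the laminin chain Lama3 (1.56 ± 0.12), the basement membrane collagen Col4a2 (0.93 ± 0.12), fibronectin, Fn1 (1.47 ± 0.21), and thrombospondin 1, Thbs1 (2.43 ± 0.23). Col4a5, which lies around smooth muscle (−2.0 ± 0.20), Col6a1 (−1.16 ± 0.19) and the proteoglycan lumican, Lum (−2.26 ± 0.25), fell beside the smooth muscle markers. Fibroblast markers gave 2 rises and 2 falls of 8 (median −0.01, or 0.30 after quantile normalization, leave-out counts of rises 0, 1, 0 and 0). Integrins rose in 6 and fell in 2 of 20 cases, with leave-out counts of rises 4, 3, 6 and 4 and of falls 2, 2, 5 and 2. Itga7, the laminin receptor of muscle, fell (−2.29 ± 0.14, adjusted p = 0.000919) and Itga6, that of epithelium, rose (0.97 ± 0.11, adjusted p = 0.00289, and 2.50 at another probe).

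Ligands of growth factor receptors rose in 9 and fell in 5 of 33 cases. Pdgfb, which recruits the cells around vessels, rose (1.97 ± 0.14, adjusted p = 0.00106), as did neuregulin 1, Nrg1 (2.03 ± 0.15, adjusted p = 0.0011) and epiregulin, Ereg (1.26, 2.33, 2.03 and 2.77), while Egf fell (−2.11 ± 0.28). Receptor tyrosine kinases fell in 11 and rose in 5 of 35 cases (median 0.0044), against 25.6% and 20.8% over all tested genes, with leave-out counts of rises 0, 1, 3 and 1. Erbb3, the receptor for neuregulin, fell (−1.33 ± 0.12, adjusted p = 0.00163), as did Fgfr3 (−2.35, −2.40, −1.62 and −1.41).

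Within the BMP, TGF-β and activin family 15 genes rose and 10 fell of 48. The activin subunit Inhba had levels of −2.66, −2.26, −2.59 and −2.82 in normal tissue and 2.44, 3.63, 2.63 and 2.43 in polyps (mean difference 5.36 ± 0.16, adjusted p = 0.000464). The polyps lay far above the normal tissues, without overlap. The other subunit, Inhbb, rose by 2.42 to 3.75, and Tgfb1 by 1.30 to 1.84. Bmp7 rose (2.08 ± 0.19), while Bmp3 (−2.61 ± 0.23) and the BMP target Id4 (−2.82 ± 0.21) fell. Ltbp2, a binding protein of the matrix, rose by 5.10 in mouse 107 and by 1.97 to 2.96 in the others (mean 3.21, and 2.59 without mouse 107).

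Of Hedgehog genes Ihh, the ligand of the colon lining, differed by −1.98, −1.42, −1.57 and −2.11 (mean −1.77 ± 0.16, adjusted p = 0.00165), its stromal target Gli1 by −1.63, −1.88, −0.85 and −2.32 and the decoy receptor Hhip by −1.89, −3.26, −1.67 and −2.61. In the joint list of Notch and Hedgehog genes 14 fell and 8 rose of 33, with leave-out counts of falls 8, 9, 12 and 10. Of Notch-related factors Hes6 (1.36 ± 0.12, adjusted p = 0.00167) and Hey1 (1.72 ± 0.27) rose, and Atoh1, which directs cells into the secretory lineage, fell (−2.35, −2.79, −2.19 and −1.23).

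Among prostaglandin genes Ptgs2, the inducible cyclooxygenase, had levels of −4.04, −4.0, −2.95 and −4.48 in normal tissue and −0.09, 1.64, 0.84 and 0.61 in polyps (mean difference 4.62 ± 0.36, adjusted p = 0.00127). The uptake carrier Slco2a1 fell by 2.67 to 2.94 (mean −2.82 ± 0.10, adjusted p = 0.000489), the degrading enzyme Hpgd by 2.78 to 3.65 (−3.21 ± 0.17, adjusted p = 0.000706) and the receptor Ptger3 by 2.04 to 2.61. The signal of Pla2g2a, the phospholipase gene named above among Paneth cell markers, rose by 3.23 to 4.07. The arrays measure RNA, so enzyme activity is not shown. Over the list 7 of 25 rose and 12 fell.

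Axon guidance genes rose in 13 and fell in 20 of 51 cases. The ephrin Efna4 (2.27 ± 0.13, adjusted p = 0.000811), the semaphorin Sema7a (3.72 ± 0.30) and the receptor Robo1 (4.16, 3.98, 3.05 and 2.79) rose, and Sema4g fell (−2.29 ± 0.14, adjusted p = 0.000874). Ion channels fell in 29 and rose in 10 of 90 cases. The magnesium channel Trpm6 fell (−3.16, −2.76, −2.96 and −3.37, mean −3.06 ± 0.14, adjusted p = 0.000543), and the sodium channel subunit Scn2b rose by 2.97 to 4.16 (3.52 ± 0.25, adjusted p = 0.00108).

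Interleukins and TNF family ligands rose in 21 and fell in 4 of 35 tested cases (median 1.73, by mouse 1.42, 1.75, 2.17 and 0.90, or 0.82 over the mice after normexp and quantile normalization), with leave-out counts of falls 2, 2, 7 and 3. Il11, a cytokine of stromal cells that acts through gp130, stood at −4.46, −3.89, −4.14 and −3.73 in normal tissue and 1.83, 3.73, 2.43 and 2.31 in polyps (mean difference 6.63 ± 0.28, adjusted p = 0.0005). Its relative Il6 was not well above background in any Apc normal tissue and higher in polyps by at least 53-fold. Genes like Il6, tested only because of their polyp signal, add to the count of rises and to the median of this class. Of 59 class members with a probe, 14 were at background on all 8 arrays. Osm, another ligand of the group, rose by 1.91 to 3.36. Il1b, a product of activated myeloid cells, differed by 4.99, 4.85, 6.16 and 5.28 (mean 5.32 ± 0.24, adjusted p = 0.000569). The alarmin Il33 rose by 2.91 to 4.05 and its receptor Il1rl1 by 2.82 to 5.73.

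Chemokines rose in 13 and fell in 3 of 32 cases, with leave-out counts of falls 3, 3, 6 and 3. The neutrophil attractants were the largest rises: Cxcl1 stood at −4.58, −3.04, −4.93 and −3.09 in normal tissue and 0.70, 2.26, 1.87 and 1.69 in polyps (mean difference 5.54 ± 0.35, adjusted p = 0.000919), and Cxcl5 differed by 6.18, 4.64, 9.38 and 4.26. Cxcl3 and Cxcl2 were not well above background in any Apc normal tissue and were higher in polyps by at least 63-fold and 33.3-fold. Ccl4 rose by 2.98 to 4.51 (3.80 ± 0.32, adjusted p = 0.00146). The lining and stromal chemokines Ccl28 (−3.04 ± 0.33) and Cxcl12 (−2.02 ± 0.20) fell. Neutrophil markers rose in 6 of 10 cases (median 4.48, or 2.56 after normexp and quantile normalization), S100a8 by 4.51 to 8.02 (mean 6.13, and 5.50 without mouse 103) and S100a9 by 4.54 to 8.29 (mean 6.17, and 5.46), and mast cell markers in 6 of 8 with 1 falling. Macrophage markers gave 1 rise among 6 and T and NK cell markers 2 among 8. The part of these cells in the cytokine values was not tested.

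The promoters of Cxcl1 (chr5:90891095-90891244, plus strand) and Cxcl3 (chr5:90785951-90786100, plus strand) are shown, with build and limits as above, because both hold an NF-κB motif (GGGA, any base, then TTTCC, in capitals), sought on both strands.
Cxcl1: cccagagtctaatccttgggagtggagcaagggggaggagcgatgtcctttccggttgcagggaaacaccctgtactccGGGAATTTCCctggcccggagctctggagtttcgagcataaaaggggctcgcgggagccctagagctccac
Cxcl3: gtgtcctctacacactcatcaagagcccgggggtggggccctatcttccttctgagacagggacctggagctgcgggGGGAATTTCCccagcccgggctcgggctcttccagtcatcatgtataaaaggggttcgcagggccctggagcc
It began at position −71 in Cxcl1 and −73 in Cxcl3. The same letters lay in 0.411% of all windows, in 0.597% of tested genes with a window in 2.17% of those that rose and 0.874% of those that fell by 4-fold or more, and in 3 of 22 chemokine and 4 of 22 interleukin and TNF family genes.

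Receptors of chemokines and cytokines rose in 21 and fell in 11 of 72 cases, with leave-out counts of falls 6, 7, 17 and 7. Tnfrsf11b, osteoprotegerin, a decoy for a bone-resorbing TNF ligand, had levels of −2.32, −1.47, −2.31 and −1.89 in normal tissue and 3.84, 4.09, 3.62 and 3.87 in polyps (mean difference 5.86 ± 0.13, adjusted p = 0.000325), a rise of 5.57 to 6.16 in every mouse. Tnfrsf19 rose (3.35 ± 0.23, adjusted p = 0.000982, and 1.55 at another probe), as did the TWEAK receptor Tnfrsf12a (3.02 ± 0.23), the decoy receptor Il1r2 (3.62 ± 0.35) and the oncostatin receptor Osmr (1.49 ± 0.21). The epithelial IL-22 receptor Il22ra1 fell by 1.30 to 1.70.

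Antimicrobial and acute-phase proteins rose in 16 and fell in 5 of 29 cases (median 2.16). Serum amyloid A genes parted: Saa3 rose by 4.20 to 6.12 and Saa1 fell by 0.91 to 2.22. Pigr, which carries IgA to the lumen, fell (−1.82 ± 0.16, adjusted p = 0.00166). Complement and coagulation genes gave 5 rises and 4 falls of 32, both below the 20.8% and 25.6% over all tested genes. Their leave-out counts of falls were 3, 2, 9 and 2. Cd59a, a shield against complement, fell (−1.73 ± 0.16, adjusted p = 0.00179), and the coagulation genes F3 (1.78 ± 0.20) and F5 (1.90 ± 0.32) rose. Of S100 proteins and annexins 9 rose and 6 fell of 27, with differences of 1.40 for Anxa6 and −1.71 for Anxa13, an annexin of the gut lining.

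Transcription factors of gut identity and of other tissues followed. The Sox, Fox, Gata and Klf families gave 17 rises and 17 falls of 64, with leave-out counts of falls 12, 13, 16 and 11. The shares over all tested genes were 20.8% rising and 25.6% falling, for comparison with this and the next counts. Sox4 rose by 3.01 to 3.50 (mean 3.25 ± 0.13, adjusted p = 0.000491), the proliferation factor Foxm1 by 1.42 to 1.60 (1.5 ± 0.09, adjusted p = 0.000919) and Sox17, an endoderm and vessel factor, by 2.87 to 5.38. Klf4, which promotes maturation of colon cells, fell by 2.28 to 3.29 (mean −2.80 ± 0.19, adjusted p = 0.000957). Homeobox genes outside the Hox clusters rose in 9 and fell in 13 of 52 cases. Onecut2, a factor of liver, pancreas and small bowel, stood at −5.22, −4.29, −5.58 and −6.22 in normal tissue, with 2 arrays well above background, and at 1.10, 2.24, 2.15 and 1.87 in polyps (7.17 ± 0.35, adjusted p = 0.000647). Cdx1, a factor of intestinal identity, fell (−1.69 ± 0.13), and Tgif1 rose (1.97 ± 0.15, adjusted p = 0.00118). Hox genes gave 3 rises and 6 falls of 29, Hoxa9 rising by 1.12 to 1.65 and Hoxa13 falling by 0.80 to 1.06.

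Immediate early genes rose in 10 and fell in 4 of 26 cases, with leave-out counts of falls 2, 3, 3 and 2. The MAP kinase phosphatase Dusp4 rose by 2.56 to 3.27 (mean 2.98 ± 0.16, adjusted p = 0.000698), and Ier3 (3.78 ± 0.34), Egr1 (1.95 ± 0.32) and Nr4a1 (1.95 ± 0.22) rose. Fosl1, a partner of Jun in AP-1, differed by 4.24, 3.93, 0.96 and 1.18, and its call ended without mouse 103 (adjusted p = 0.0975) or mouse 106 (adjusted p = 0.106). Circadian clock genes fell in 12 and rose in 1 of 18 cases (median −1.03). The output factors Dbp (−3.43, −3.41, −2.48 and −3.11) and Tef (−1.86, −1.73, −1.95 and −1.95) and the repressor Nr1d1 (−2.79, −2.89, −2.38 and −3.03) fell. The clock gene Arntl differed by −1.22, −0.77, −0.56 and −0.93. Nfil3, which opposes Dbp at shared sites, rose by 1.37 to 2.82. The sources used here give no hour of sampling. Both tissues of a pair carry the number of 1 mouse, and the part of the hour was not tested.

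Nucleoporins and nuclear transport factors rose in 35 and fell in 0 of 53 cases, with medians of 0.57, 0.56, 0.62 and 0.54 in the 4 mice. Nup155 rose by 0.98 to 1.25 (1.17 ± 0.10, adjusted p = 0.00161) and Nup93 by 0.93 to 1.14, although the mean over all probes of Nup93 gave −0.06. Proteasome subunits rose in 15 and fell in 0 of 46 cases, Psmd7 by 0.56 to 0.59 (0.57 ± 0.09, adjusted p = 0.00679) and Psmd14 by 0.48 to 0.79. The count of rises was 33 after quantile normalization, and the leave-out counts were 3, 6, 9 and 5. Aminoacyl-tRNA synthetases rose in 11 and fell in 4 of 37 cases (leave-out counts of rises 4, 7, 6 and 6 and of falls 0, 1, 0 and 1), Vars by 0.84 to 1.29 and the mitochondrial Yars2 by 0.52 to 0.88.

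For ribosomal proteins the direction hung on the scaling. Cytosolic ribosomal proteins fell in 27 and rose in none of 75 cases (median −0.27), but after quantile normalization 2 fell and 5 rose (median 0.09). Leave-out counts of falls were 3, 6, 12 and 8. Rps24 fell by 0.65 to 0.93 (−0.78 ± 0.10, adjusted p = 0.00404) and Rpl23 by 0.47 to 0.65 (−0.42 and 0.04 at its other probes), and the call of Rpl23 ended after quantile normalization (−0.24, adjusted p = 0.0913). Mitochondrial ribosomal proteins fell in 12 and rose in 3 of 78 cases, but in 4 and 11 after quantile normalization. Leave-out counts of falls were 2, 4, 6 and 10 and of rises 0, 1, 1 and 0. Mrps6 (−1.17 ± 0.10, adjusted p = 0.00148) and Mrpl14 (−0.72 ± 0.10, adjusted p = 0.0055) fell in the main fit.

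Stress and lipid genes completed the classes. Genes of the unfolded protein and integrated stress responses fell in 10 and rose in 3 of 33 cases (8 and 7 after quantile normalization, leave-out counts of rises 1, 2, 4 and 2), Herpud1 by 1.10 to 1.36 downward (−1.23 ± 0.10, adjusted p = 0.00134) and Creb3l1, a factor of secretory cells, by 1.35 to 2.40. Trib3, a target of the integrated stress response, rose by 1.05 to 2.78. Sterol and fatty acid synthesis genes fell in 16 and rose in 3 of 37 cases (leave-out counts of rises 1, 1, 1 and 4), among them Acacb (−2.11 ± 0.15, adjusted p = 0.00105) and Stard4 (−1.16 ± 0.09, adjusted p = 0.0014). Lipoprotein and lipid absorption genes fell in 12 and rose in 4 of 28 cases. Apob, the core of chylomicrons, fell by 2.40 to 4.29 and the hepatic and intestinal factor Creb3l3 by 0.79 to 3.31. The fatty acid binding proteins Fabp2 (−4.43, −3.45, −5.54 and −0.56) and Fabp6 (−2.38, −4.95, −1.01 and −4.60) fell unevenly. The call of Fabp2 ended without mouse 103, 106 or 107 (adjusted p = 0.0505 to 0.0882) and that of Fabp6 without mouse 103, 106 or 110 (adjusted p = 0.0543 to 0.0745). The pancreatic lipase relatives Pnliprp1 (5.59, 5.52, 7.31 and 4.75, mean 5.79 ± 0.43, adjusted p = 0.00118) and Pnliprp2 (4.42, 4.49, 3.48 and 3.32, mean 3.93 ± 0.25, adjusted p = 0.000936) rose. In wild-type tissue Pnliprp1 stood at −2.14, −2.72, −1.80 and 3.05, so mouse 108 had a level in the range of the polyps.

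Several genes differed more between mice than any mean can show. Reg3g, a lectin that kills Gram-positive bacteria, stood at −3.48, 0.70, 4.78 and −0.30 in normal tissue and 4.45, 4.03, 6.10 and 5.13 in polyps, and in wild-type tissue at −3.93, −5.52, −5.26 and −4.54. The polyps were alike, the normal tissues were not, and the groups overlapped. Its differences of 7.93, 3.33, 1.32 and 5.43 gave a mean of 4.50 ± 1.10, adjusted p = 0.0249, and the call ended without mouse 103, 106 or 110 (adjusted p = 0.0528, 0.0647 and 0.0931). Cxcl5 and the defensins Defa40 (7.15, 4.02, 9.49 and 6.66), Defa36, Defa32 and Defa3 had the largest spreads after it, always with mouse 107 highest. Without that mouse the mean of Cxcl5 was 5.03 in place of 6.12. Adipsin, Cfd, a product of fat cells, differed by −1.92, −8.72, −10.04 and −2.32 (mean −5.75 ± 1.63, adjusted p = 0.039), with 3 normal tissues and 1 polyp well above background, and its call ended without mouse 106, 107 or 110 (adjusted p = 0.129, 0.082 and 0.0557).

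**Figure D4:**
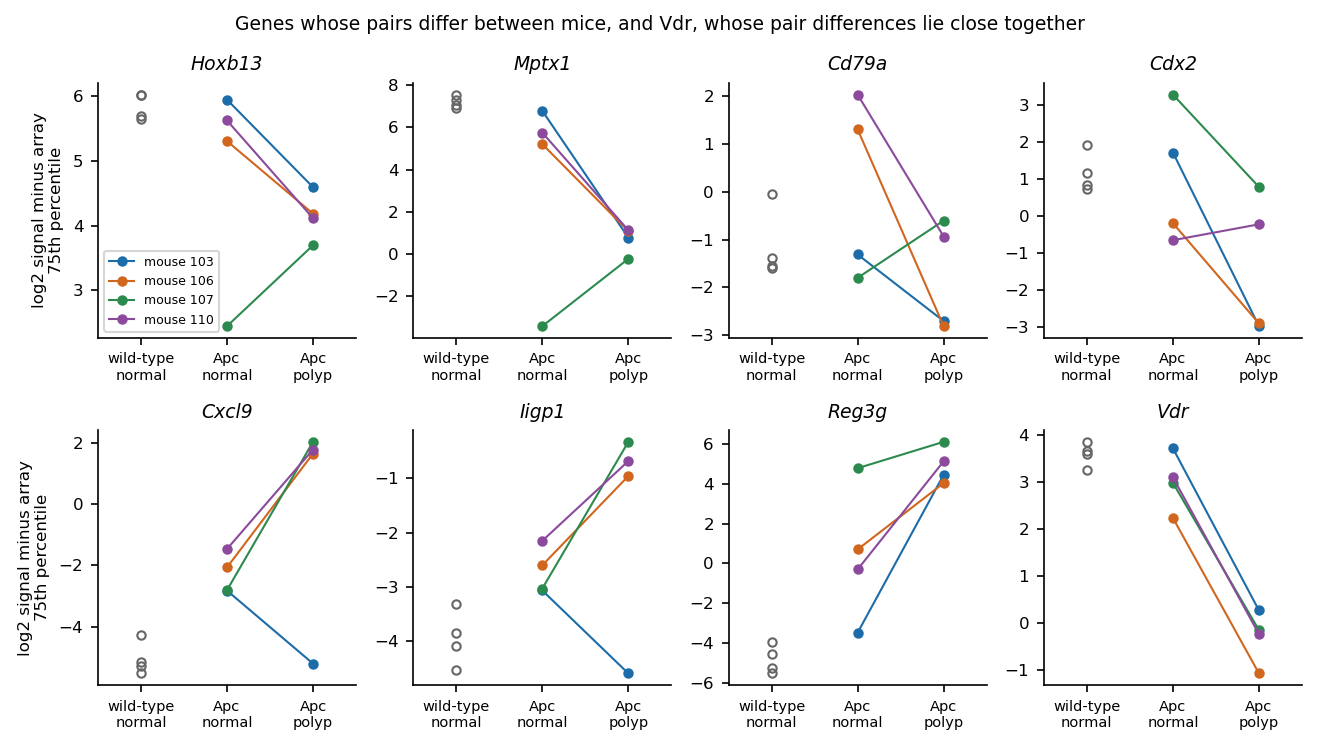
Levels (log2 signal minus the 75th percentile of the array) of 8 genes in normal tissue of 4 wild-type mice (open circles) and in normal tissue and polyp of 4 Apc mice, joined by a line per mouse. Mouse 107 runs against the others for Hoxb13, Mptx1 and Cd79a and mouse 103 for Cxcl9 and Iigp1, while the 4 lines of Vdr are nearly parallel.

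In mouse 107, 27 genes above background on all 8 arrays were at least 2-fold higher in the polyp while at least 2-fold lower in the other 3 polyps, and 9 were the reverse. The corresponding numbers were 0 and 5 in mouse 103, 1 and 0 in mouse 110 and 0 and 0 in mouse 106. Mptx1, a mucosal pentraxin, stood at 6.78, 5.20, −3.43 and 5.75 in normal tissue and 0.77, 1.08, −0.23 and 1.12 in polyps, and at 7.06, 7.32, 6.91 and 7.55 in wild-type tissue. The polyps differed little, and the normal tissue of mouse 107 alone lay below them. Over 4 pairs Mptx1 did not pass (adjusted p = 0.193), and without mouse 107 it fell (−4.92, adjusted p = 0.00337). Slc37a2, a sugar-phosphate carrier of macrophages, stood at 3.62, 1.56, −4.47 and 1.58 in normal tissue and −1.43, −2.39, −2.53 and −1.90 in polyps, again with the normal tissue of mouse 107 lowest. It did not pass over 4 pairs (adjusted p = 0.132) and did without mouse 107 (−4.16, adjusted p = 0.00336).

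Cd79a, a subunit of the B cell receptor, stood at −1.31, 1.30, −1.80 and 2.03 in normal tissue and −2.70, −2.81, −0.60 and −0.94 in polyps. It did not pass over 4 pairs (adjusted p = 0.152) and did without mouse 107 (−2.82, adjusted p = 0.0202). The normal tissues of mice 106 and 110 were the high ones for Cd79a, above all 4 wild-type tissues (−0.04, −1.60, −1.39 and −1.54). Another probe of Cd79a gave a mean difference of 0.20. Of 8 B and plasma cell markers 2 fell over 4 pairs (leave-out counts 2, 2, 8 and 2). Genes of MHC class II and antigen presentation gave 1 rise and 2 falls of 20, with leave-out counts of rises 3, 1, 1 and 1 and of falls 0, 0, 10 and 1. H2-Aa, an MHC class II chain, differed by −1.05, −1.21, 0.68 and −1.51 (adjusted p = 0.163) and passed without mouse 107 (−1.26, adjusted p = 0.00658). In this list Cd1d1, which presents lipids, rose (0.97 ± 0.18, adjusted p = 0.0105), and the protease gene Ctss fell (−1.11 ± 0.26, adjusted p = 0.0237), a call that ended without mouse 103, 106 or 110 (adjusted p = 0.0729 to 0.0874). Cyp2c66 stood at −0.95, −0.33, 4.78 and 0.03 in normal tissue, so that the largest single part of its mean fall (−3.86 ± 0.72, adjusted p = 0.0112) came from the same sample (mean −3.06 without mouse 107 and −4.49 without mouse 103).

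Interferon-induced genes split by mouse at the polyp. The medians of the list were −1.39, 0.86, 1.46 and 1.18, with 3 rises and 4 falls of 33 over 4 pairs. Leave-out counts were 17, 3, 3 and 2 rises and 2, 1, 2 and 4 falls. Cxcl9, an interferon-γ target that attracts T cells, stood at −2.82, −2.07, −2.81 and −1.46 in normal tissue and −5.21, 1.66, 2.04 and 1.79 in polyps, and at −5.07 ± 0.55 (SD, n = 4) in wild-type tissue. The polyp of mouse 103 was at the wild-type level, and the other 3 were above every normal tissue. Cxcl9 did not pass over 4 pairs (adjusted p = 0.178) and rose without mouse 103 (3.94, adjusted p = 0.0091). The GTPases Igtp (−1.44, 1.68, 2.66 and 1.62), Iigp1 (−1.53, 1.65, 2.71 and 1.47) and Gbp3 (−1.26, 1.17, 2.62 and 1.73) and the ubiquitin-like Ubd (−1.08, 1.16, 4.99 and 1.33) had the same order of signs. Over 4 pairs none of these 4 passed, and without mouse 103 Igtp (1.99, adjusted p = 0.0161), Iigp1 (1.94, adjusted p = 0.0202) and Gbp3 (1.84, adjusted p = 0.0261) passed while Ubd did not (2.49, adjusted p = 0.109). Tgtp2, a GTPase with a near-identical copy, differed by −0.27, 3.03, 4.64 and 2.78 and passed without mouse 103 (3.49, adjusted p = 0.014). Usp18 (1.71, 3.69, 3.14 and 3.11, mean 2.91 ± 0.34, adjusted p = 0.003) and the RNA sensor Ddx58 (0.59, 1.21, 1.01 and 1.41, mean 1.06 ± 0.16, adjusted p = 0.00649), which respond to type I interferon, rose in all 4 mice. Median levels of T and NK cell markers differed by 0.0, −0.07, 2.30 and −0.18 in the 4 mice, and their part in these values was not tested.

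Cdx2, a homeobox factor that sets intestinal identity, parted mouse 110 from the rest. Its levels were 1.72, −0.19, 3.29 and −0.65 in normal tissue and −2.98, −2.91, 0.79 and −0.22 in polyps, and 0.86, 1.91, 0.72 and 1.17 in wild-type tissue. The polyps of mice 103 and 106 were the lowest of all 12 samples, and those of mice 107 and 110 lay within the range of the normal tissues. The differences of −4.70, −2.71, −2.50 and 0.43 did not pass over 4 pairs (adjusted p = 0.0667) and did without mouse 110 (−3.31, adjusted p = 0.0188). Its relative Cdx1 fell in every mouse, by 1.41 to 2.04.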

How the data were processed

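Whole-genome single-colour Agilent arrays of mouse colorectal tissue were used, 8 of 12 in the main fit. Per the file headers, the authors scanned Cy3-labelled RNA and the deposited intensity values are processed signals of Agilent Feature Extraction 10.7.3.1, already background-subtracted. The authors also deposited a value table of linear ratio values, whose making the sources used here do not state. Each equalled the processed signal divided by a constant of its array within 1% for 99.784% to 99.855% of entries, with column medians of 1.0009 to 1.0029. It carries no separate centring by gene and served as an alternative source.

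Here the log2 of each processed signal was taken minus the 75th percentile of its array. Left out were control spots and 1403 spots marked as outliers. Spots of a probe were averaged, and the probe brightest on average over 12 arrays stood for a gene. Probes were named by RefSeq accession, symbol or synonym, or kept the name in the files. The main fit was limma 3.58.1 (R 4.3.3) with mouse and tissue as terms, followed by eBayes, with Benjamini-Hochberg adjustment over 20071 genes, 17 of which lacked 1 pair. For "at least" folds the dim group was set to the lowest signal of a probe well above background on each array, or the probe's own value where higher. Summaries and plots used Python 3.11.15, numpy 2.4.6, pandas 2.3.3 and matplotlib 3.10.9.

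Mouse numbers come from the sample titles. Deviations of the 2 tissues of a mouse from their group means correlated at 0.455, 0.170, 0.143 and 0.283 over tested genes in the 4 mice, against −0.328 to 0.193 for tissues of different mice. The main fit had no term for slide, and both tissues of a mouse lay on the same slide. Slide entered in alternative fits only. Array position cannot be told apart from tissue and was not adjusted for.

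Genes named were the 10 highest and 10 lowest mean differences, the 8 rises and 8 falls of smallest spread with a mean of at least 2, the 6 of largest spread, the 6 uncalled genes of largest difference, the 2 of smallest p in each list, and Apc. The first 3 groups came from 6585 called genes with 1 sign in all pairs and signal on all 8 arrays, outside the Wnt, stem cell and cell cycle lists. Some genes that this rule names are not reported here. All further genes were chosen after their values were seen. Members and lists were chosen with earlier results of these data known. On simulated data with 50 changed genes of each size among 20054, the fit recovered 0%, 34%, 88% and 100% of changes of 0.5, 1, 2 and 3 (log2), with 13 false calls. Far fewer genes changed there than the 9318 called here. The adjustment was therefore stricter in the simulation, and its shares do not carry over to the real fit. Alternatives covered scaling, background correction, value source, filter, probe choice, blocks, slides, variance model, a minimum fold and each mouse left out.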

Additional observations from a re-analysis of the deposited data

Results flagged for a closer look

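Within groups of 4 samples, a sample was singled out when its gap to the nearest other, divided by the range of the group, exceeded Dixon's 95% critical value for its number. Of 516 groups checked over the named genes, 32 held such a sample. Chance flags about 1 in 20 groups, and the number flagged was not far above that share. Many of the genes were chosen after their values were seen, among them Igtp, Iigp1, Gbp3 and Ubd. Flags on such genes were partly fixed in advance and are no separate support for a sample standing apart. By sample, 10 of the 32 were the polyp of mouse 103, 10 the polyp of mouse 106, 7 the normal tissue of mouse 107, 3 the normal tissue of mouse 103, 1 the normal tissue of mouse 110 and 1 the polyp of mouse 107. The values that follow are levels.

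In the polyp of mouse 103 the interferon-induced genes were low: Cxcl9 at −5.21 against 1.66 to 2.04 in the other polyps, Tgtp2 at 0.17 against 4.52 to 4.74, Igtp at −0.63 against 2.59 to 3.05, Iigp1 at −4.60 against −0.96 to −0.33, Gbp3 at −1.5 against 1.47 to 1.67 and Ubd at −1.76 against 1.48 to 1.63. The neutrophil genes S100a8 (2.59 against 4.58 to 4.97) and S100a9 (4.21 against 5.85 to 6.15) were low in it as well. Krt7 (4.38 against 4.03 to 4.08) and Slc25a42 (−1.81 against −2.67 to −2.54) were high in it.

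In the normal tissue of mouse 107 Mptx1 stood at −3.43 against 5.20 to 6.78 in the other Apc normal tissues, Hoxd13 at −7.57 against 0.23 to 1.55, Pnliprp1 at −4.54 against −1.37 to −1.18 and Saa1 at 6.84 against 7.79 to 7.97. In the same sample the P450 genes Cyp2c55 (6.86 against 3.31 to 3.91), Cyp2c66 (4.78 against −0.95 to 0.03) and Cyp4b1 (−0.02 against −3.65 to −3.18) were high.

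In the polyp of mouse 106 lining genes were low: Slc26a3 at −2.04 against −0.61 to −0.33 in the other polyps and Slc9a2 at −2.32 against −1.26 to −1.11. Slc2a5 (−4.81 against −3.18 to −3.01), Fabp6 (−2.12 against −1.42 to −1.35), Atoh1 (−0.61 against 0.37 to 0.54) and Nr1i3 (−6.66 against −5.70 to −5.67) were low too. The gaps were small for Cat (−0.29 against 0.07 to 0.11), Epcam (3.16 against 3.51 to 3.53) and Col4a5 (−4.09 against −3.99 to −3.97). Inhba (3.63 against 2.43 to 2.63) was high in this polyp.

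The other flags were single genes. Fgfr3 (1.63 against 0.75 to 0.80) and Ihh (3.48 against 2.49 to 2.64) were high and Slc2a3 (−3.34 against −2.58 to −2.47) low in the normal tissue of mouse 103. Krt17 (−2.73 against −1.31 to −1.04) was low in the normal tissue of mouse 110, and Defa-rs2 (4.40 against 3.68 to 3.70) was high in the polyp of mouse 107.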

How the results depend on the processing

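With 4179 genes higher and 5139 lower in polyps, a required minimum fold of 2 left 726 and 853. Slide 2 alone gave 1855 and 2600. Slide 3 alone gave 0 and 0 by limma, with 5796 genes at an unadjusted p under 0.05. Leaving out 1 mouse gave 2679 to 3473 higher and 3066 to 4519 lower genes, lowest without mouse 103 (2679 and 3066). Each of these fits has fewer samples or a stricter rule. The fit with no replicate block gave 4119 and 5007, 9126 in all, of which 8529 were also called with the mouse as a block. Among named genes the pairing decided the call of Cfd alone (adjusted p = 0.0785 without it). The share of called genes that were higher was 44.85%, and 51% after quantile normalization (4674 and 4491) and 51.63% after normexp and quantile normalization (4777 and 4475). The mean over probes turned the sign of Nup93 (−0.059), and slide 2 alone that of Gbp3 (−0.047). The cause was not tested. Apc did not pass with the array median, without the filter on dim probes or with a variance trend (adjusted p = 0.0539 to 0.099). Probes near background limit what can be said of genes at low levels. Changes of 0.5 (log2) were not recovered in simulated data, where far fewer genes changed and the adjustment was stricter than here.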
